A study of Homo sapiens with 6 samples.

Results

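CNIH2 encodes one of the 4 human cornichon proteins, and it is described here with its paralogs CNIH1, CNIH3 and CNIH4 and with GRIA1, GRIA2, GRIA3 and GRIA4, the genes of the 4 AMPA receptor subunits. These 8 genes were taken by symbol from the platform annotation, out of 17687 genes compared. All 8 were measured, each by 1 probe set. The group was selected on the measured difference of CNIH2, which was higher after ERK3 knockdown in these same arrays, so the difference of CNIH2 between the groups is given as a description, with no test.

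The cells were A375, an established human melanoma line, grown as a bulk culture. They were transfected with a predesigned small interfering RNA (siRNA) against ERK3 (siERK3, 3 arrays) or with a negative control siRNA (siCon, 3 arrays), and RNA was taken 3 days later. The knockdown was transient, and both groups received the transfection reagent. MAPK6 is the gene of ERK3, an atypical member of the mitogen-activated protein kinases. Clariom S Pico arrays gave a log2 value per probe set. Nothing in the labels states that replicates came from different cultures, and p-values therefore reflect the spread among 6 arrays, which may be technical. In a bulk culture a larger share of cells that express a gene and more of its RNA per cell cannot be told apart.

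Cornichon proteins are small membrane proteins of the early secretory pathway. They act as cargo receptors, which bind particular membrane proteins in the endoplasmic reticulum (ER) and load them into vesicles with a COPII coat. In flies the founding member exports a ligand of the epidermal growth factor (EGF) family. In neurons, the proteins encoded by CNIH2 and CNIH3 also stay with AMPA receptors, the glutamate-gated channels of fast excitatory transmission, as auxiliary subunits that slow channel closing.

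MAPK6, the target, measured 13.45, 13.55 and 13.62 on the log2 scale in siCon 1, 2 and 3, and 10.54, 10.32 and 10.67 in siERK3 1, 2 and 3. Its log2 change was -3.03 (SE 0.14; adjusted p = 0.000133 in limma). The 95th percentile of the 612 negative control probe sets of an array lay between 7.32 and 7.56 on the log2 scale and is called background below. Of all 17687 genes, 8838 lay below background on all 6 arrays and 7721 above it on all 6. A375 is a melanocyte-derived line, and of 7 measured melanocyte lineage markers MITF, SOX10 and S100B lay above background on all 6 arrays, while MLANA, PMEL, TYR and TYRP1 lay below it on all. The melanocyte markers with the smallest p were S100B, with a log2 change of 0.39 (SE 0.17), and TYR, with 0.23 (SE 0.18); 0 of the 7 passed. Of 10 measured neuronal markers, 8 lay below background on all 6 arrays, among them RBFOX3, SYP, SNAP25 and SYN1. In limma's test 0 of them passed, and 1 was lower at an unadjusted p under 0.05. Over all genes 0.956% passed and 6.5% were lower at that unadjusted level, so these counts are not a result about the markers. The mean log2 level of this neuronal list lay between 5.65 and 5.78 in siCon and between 5.51 and 5.71 in siERK3. NEFL, a neurofilament gene, measured 8.70 in siCon and 8.39 in siERK3, and SYT1, a synaptotagmin gene, 9.00 and 8.99; both lay above background on all 6 arrays. STMN2, the neuronal marker with the smallest p, had mean levels of 4.63 and 4.04, below background. Of 7 leukocyte, endothelial and fibroblast markers, 6 lay below background on all arrays and 0 passed. CD68, above background on all 6 arrays, measured 12.51 in siCon and 12.05 in siERK3, a log2 change of -0.47 (SE 0.13). Its groups did not overlap, as was also the case for 19.8% of all genes. PDGFRA, below background on all 6 arrays, had a log2 change of 0.46 (SE 0.26).

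CNIH2 (chromosome 11, probe set TC1100008069.hg.1) measured 7.80, 7.71 and 7.69 on the log2 scale in siCon 1, 2 and 3. In siERK3 1, 2 and 3 it measured 9.31, 9.25 and 9.59. All 3 siERK3 arrays lay above all 3 siCon arrays, and the lowest siERK3 value exceeded the highest siCon value by 1.46. The siCon mean was 7.73 ± 0.06 (SD, n = 3) and the siERK3 mean 9.38 ± 0.18 (SD, n = 3), a log2 difference of 1.65 (SE 0.14) or 3.15-fold. By size of log2 change it ranked 7 among the genes that were higher. In siCon it lay only 0.24 to 0.37 above the background of the same array, and in siERK3 1.86 to 2.19 above it. The difference lay between 1.55 and 1.72 when each array was left out in turn. This range describes the values by which CNIH2 was chosen and gives it no separate support. The difference was 1.64 on the log2 scale under quantile normalization, cyclic loess or subtraction of the array median.

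**Figure D1:**
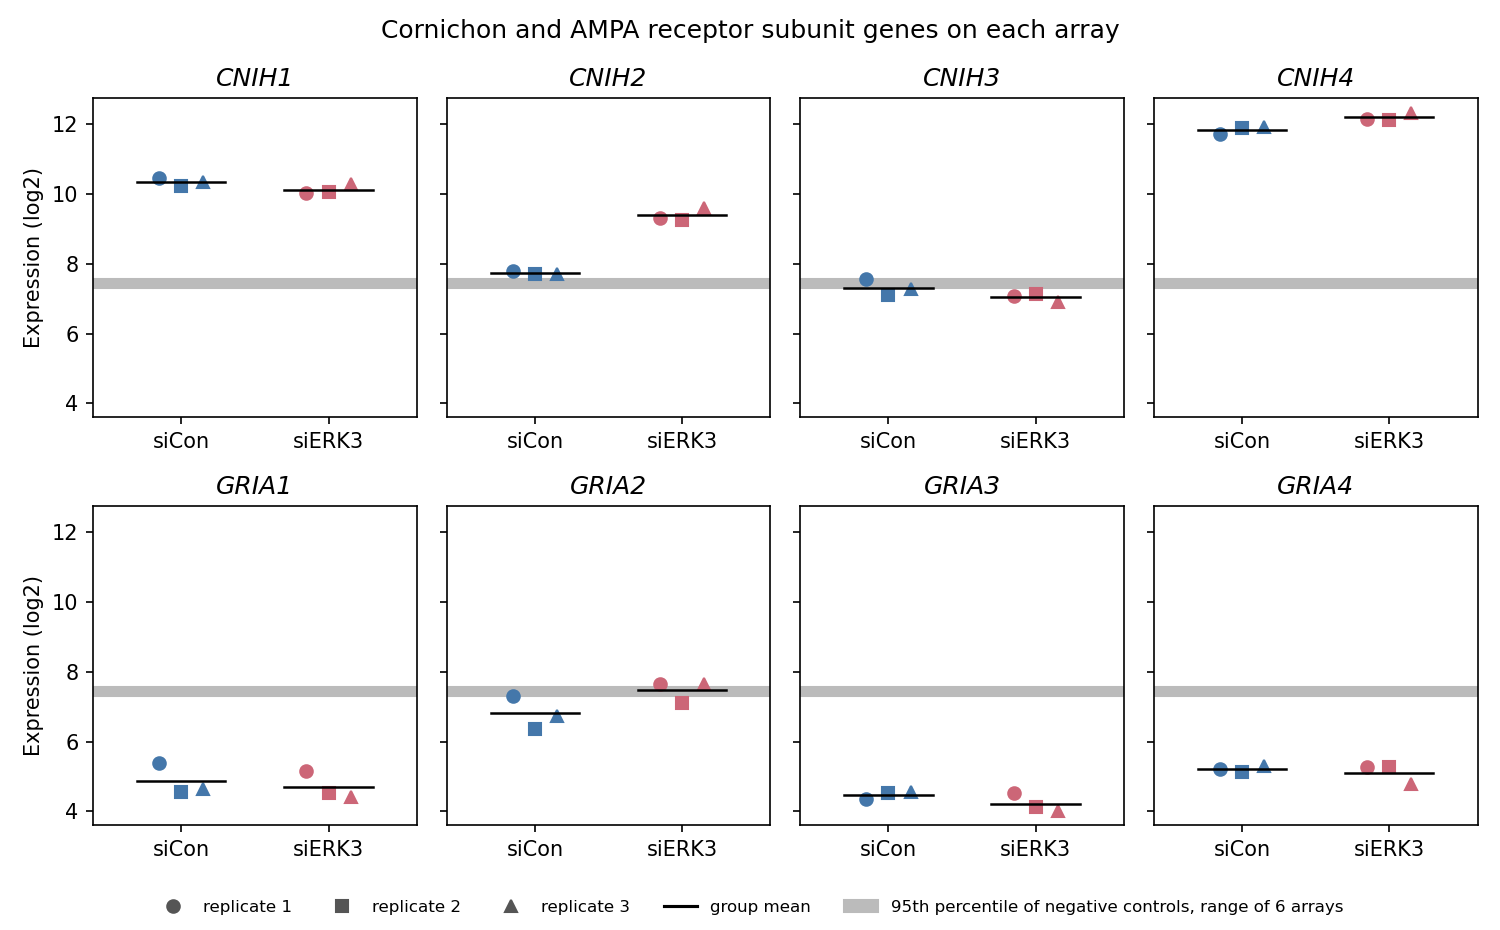
Log2 expression of each of the 8 genes (panels) on each array, with siCon and siERK3 on the horizontal axis, symbols for replicates, black lines for group means and a grey band for the range of background over the 6 arrays. CNIH2 sits just above the band in siCon and well above it in siERK3, while GRIA1, GRIA3 and GRIA4 lie below the band on all 6 arrays.

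The other cornichon genes had small differences in both directions, and none of the 3 passed in limma after Benjamini-Hochberg adjustment over all genes. Over all 17687 genes 0.956% passed, 0.447% higher and 0.509% lower in siERK3. The number of genes that passed, 169, was 35 without siCon 1, 60 without siCon 2, 28 without siCon 3, 26 without siERK3 1, 25 without siERK3 2 and 23 without siERK3 3.

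CNIH4 (chromosome 1), a cornichon gene whose product is known to help G protein-coupled receptors leave the ER, measured 11.71, 11.89 and 11.92 in siCon and 12.16, 12.13 and 12.34 in siERK3. The groups did not overlap, with a gap of 0.21, as was also the case for 19.8% of all genes. The log2 difference was 0.37 (SE 0.13, 95% interval 0.06 to 0.67), which is 1.29-fold. It did not pass over all genes (adjusted p = 0.286 in limma), and the adjusted p ranged from 0.0636 to 0.510 over the alternative fits and those that left out 1 array.

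CNIH1 (chromosome 14), whose product is known to take part in export of transforming growth factor alpha, measured 10.45, 10.22 and 10.36 in siCon and 10.03, 10.05 and 10.30 in siERK3. The groups overlapped, because siERK3 3 lay above siCon 2. The log2 difference was -0.22 (SE 0.14, 95% interval -0.54 to 0.10; adjusted p = 0.570 in limma).

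CNIH3 (chromosome 1) encodes the other cornichon protein that accompanies AMPA receptors, and it lies next to CNIH4 in the chromosomal order of measured genes. It measured 7.57, 7.09 and 7.28 in siCon and 7.07, 7.14 and 6.92 in siERK3. Only siCon 1 lay above background, so 1 of 3 siCon arrays and 0 of 3 siERK3 arrays detected it by that measure. The log2 difference was -0.27 (SE 0.16, 95% interval -0.63 to 0.09; adjusted p = 0.524 in limma), and the groups overlapped.

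The AMPA receptor subunit genes did not pass either, and 3 of the 4 were at background level in these cells. GRIA2 (chromosome 4) encodes the subunit that, once its RNA is edited, makes the channel nearly impermeable to calcium. It measured 7.31, 6.37 and 6.74 in siCon and 7.66, 7.10 and 7.64 in siERK3. siERK3 1 and siERK3 3 lay above all siCon arrays, while siERK3 2 lay below siCon 1. It was below background on all 3 siCon arrays and above it on 2 of 3 siERK3 arrays. The fitted log2 difference was 0.66 (SE 0.25, 95% interval 0.09 to 1.23; adjusted p = 0.300 in limma). Measured against background the siERK3 mean was at least 1.03-fold higher, a bound on the means alone that leaves out the spread among arrays.

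GRIA1 (chromosome 5), which encodes a subunit inserted at synapses during potentiation, measured 5.38, 4.57 and 4.65 in siCon and 5.15, 4.52 and 4.42 in siERK3. In each group replicate 1 was the highest array, and the groups overlapped. GRIA3 (chromosome X) measured 4.36, 4.52 and 4.55 in siCon and 4.53, 4.11 and 4.01 in siERK3. For GRIA4 (chromosome 11) the values were 5.21, 5.12 and 5.30 in siCon and 5.28, 5.26 and 4.77 in siERK3. These 3 genes lay below background on all 6 arrays, so no fold is given. Their log2 differences were -0.17 (SE 0.26), -0.26 (SE 0.17) and -0.10 (SE 0.17), with adjusted p of 0.839, 0.572 and 0.851 in limma. The sign for GRIA1 turned without siCon 1 (0.09), and that for GRIA4 without siERK3 3 (0.06).

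Of the 7 members other than CNIH2, 0 passed over all genes and 2, CNIH4 and GRIA2, reached an unadjusted p under 0.05, both higher. Over all genes 13.5% reached that level, 6.98% higher and 6.5% lower. The median log2 change was 0.07 over the 4 cornichon genes, CNIH2 included, and -0.14 over the 4 AMPA receptor subunit genes, against 0.00 over all genes.

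The other proteins that bind AMPA receptors were examined next. Auxiliary subunits other than cornichons include the transmembrane AMPA receptor regulatory proteins, encoded by CACNG genes, and the SHISA proteins. All 13 measured genes of this list lay below background on all 6 arrays, as did 8838 of all 17687 genes. Of the 13 genes 0 passed in either direction (median log2 change 0.11). CACNG7, the regulatory protein gene with the smallest p, measured 4.88, 4.29 and 4.36 in siCon and 5.39, 5.34 and 5.31 in siERK3. Its groups did not overlap, but both lay below background (log2 difference 0.84, SE 0.18; adjusted p = 0.0740 in limma). Its adjusted p fell below the threshold with array weights, with a mean-variance trend, and when only genes brighter than the 30th percentile were tested. CACNG3 followed with mean levels of 3.32 and 3.66. The brightest gene of the list, SHISA9, measured 5.67 and 5.58.

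Genes listed as AMPA receptor biogenesis factors had a median log2 change of 0.26, and of 6 measured genes 0 passed. FRRS1L, an ER factor of receptor assembly, lay below background at 4.25 in siCon and 4.67 in siERK3. ABHD6, a hydrolase known to limit surface delivery of AMPA receptors, measured 9.00 and 9.40 (log2 difference 0.39, SE 0.17; adjusted p = 0.366 in limma). Both were higher at an unadjusted p under 0.05, and 0 genes of the list were lower at that level, which 6.98% of all genes reached as higher and 6.5% as lower. Among 15 measured scaffold and trafficking genes 0 passed (median 0.14), and at an unadjusted p under 0.05 the list held 3 higher genes and 0 lower, beside 6.98% and 6.5% of all genes. NSF, the ATPase that takes SNARE complexes apart and binds the GRIA2 product, measured 9.23 and 9.64 (log2 difference 0.42, SE 0.12; adjusted p = 0.191 in limma), and its groups did not overlap. DLG3, a synaptic scaffold gene, measured 6.77 and 7.45, above background on 0 siCon arrays and 1 siERK3 array. DLG4, the scaffold known as PSD-95, was above background on all arrays at 10.15 and 10.24.

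Kainate, NMDA and delta receptor genes with their NETO partners were mostly at background, with 13 of 15 measured genes below it on all 6 arrays. None passed, and 0 reached an unadjusted p under 0.05 in limma, a level reached by 13.5% of all genes. The median log2 change was -0.06. GRIK2, a kainate receptor subunit, measured 10.10 and 9.95, and NETO2, a kainate receptor partner, 11.75 and 12.06 (log2 difference 0.31, SE 0.18; adjusted p = 0.524 in limma). GRID1, the gene of the list with the smallest p, measured 5.07 and 4.73, below background.

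The ER export machinery with which cornichons work was expressed, with 12 of 15 COPII coat and ER exit site genes and 23 of 25 cargo receptor genes above background on all arrays. In the COPII list 1 gene rose, 0 fell and 14 did not pass, which is 6.67% called against 0.956% of all genes; with 1 gene called this share is not a result about the list. The median log2 change was -0.04. The gene that rose was SAR1B, which encodes a small GTPase that starts COPII coat assembly. It measured 10.65, 10.70 and 10.27 in siCon and 11.70, 11.48 and 11.59 in siERK3. The groups did not overlap, and the log2 change was 1.05 (SE 0.16; adjusted p = 0.0236 in limma), or 2.06-fold. The call was lost in each of the 6 fits that left out 1 array, where the adjusted p lay between 0.0504 and 0.108 and the change between 0.91 and 1.13, and without moderation of the variance (adjusted p = 0.146). SAR1A, the paralog with the same role, measured 11.67, 11.82 and 11.88 in siCon and 11.50, 11.78 and 11.60 in siERK3, and did not pass (log2 difference -0.16, SE 0.14; adjusted p = 0.682 in limma).

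Among the cargo-binding adaptors of the coat, SEC24B had a log2 difference of 0.53 (SE 0.14; adjusted p = 0.146 in limma), and SEC24D of -0.44 (SE 0.14; adjusted p = 0.219). SEC24B measured 9.57, 9.76 and 9.87 in siCon and 10.13, 10.38 and 10.26 in siERK3. TFG, the brightest gene of the list, measured 13.39 and 13.36. Neither SEC24B nor SEC24D passed in the main fit. Both had groups that did not overlap, as was also the case for 19.8% of all genes. With a mean-variance trend and robust eBayes both passed, in a fit that called 722 of 17687 genes. SEC24C had a log2 difference of -0.31 (SE 0.13, adjusted p = 0.357 in limma), and its groups did not overlap either. At an unadjusted p under 0.05 the COPII list held 2 higher and 2 lower genes, beside 6.98% and 6.5% of all genes.

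Among the cargo receptor genes other than cornichons 0 of 25 passed, with a median log2 change of -0.06; 1 was higher and 4 were lower at an unadjusted p under 0.05, a level reached by 6.98% of all genes as higher and 6.5% as lower. ERGIC2, a receptor that cycles between the ER and the Golgi, measured 12.62, 12.53 and 12.71 in siCon and 11.81, 12.04 and 12.11 in siERK3 (log2 difference -0.63, SE 0.14; adjusted p = 0.0822 in limma). TMED10, a p24 family receptor, measured 12.83, 12.69 and 12.81 in siCon and 12.26, 12.27 and 12.03 in siERK3 (log2 difference -0.59, SE 0.13; adjusted p = 0.0934). Neither pair of groups overlapped, as was also the case for 19.8% of all genes. ERGIC2 and TMED10 passed when only genes brighter than the 30th percentile were tested, and with a mean-variance trend. SURF4, a broad cargo receptor, had a difference of 0.52 (SE 0.14, adjusted p = 0.148 in limma) and passed with a mean-variance trend. YIPF5 (-0.49, SE 0.14) and TMED2 (-0.32, SE 0.12), both lower, also passed with that trend. That fit called 722 of 17687 genes. LMAN1, the brightest gene of the list and a receptor for coagulation factors, measured 14.94 and 14.73.

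The EGF family ligands, which include known cornichon cargo, were mostly not detected. In the list of ligands and their release factors 8 of 13 measured genes lay below background on all arrays, 0 passed and the median log2 change was 0.06. TGFA, which encodes transforming growth factor alpha, measured 13.16, 13.24 and 13.00 in siCon and 12.67, 12.67 and 12.56 in siERK3. Its groups did not overlap, and the log2 difference of -0.50 (SE 0.13) did not pass (adjusted p = 0.134 in limma). With a mean-variance trend and robust eBayes TGFA passed. EPGN, the other gene of this list with a small p, lay below background at 2.53 and 3.05. ADAM17, the protease that sheds these ligands, measured 11.37 and 11.35.

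**Figure D2:**
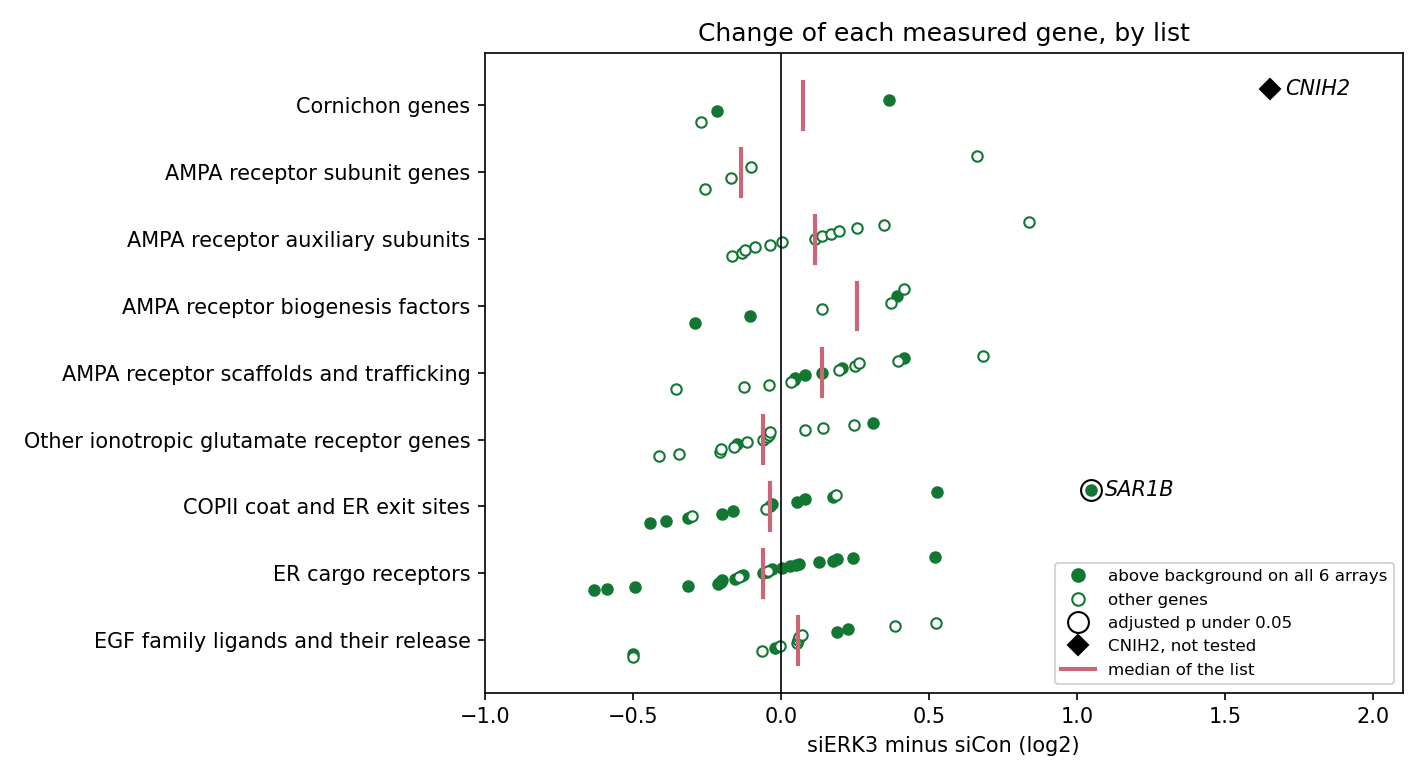
Change of each measured gene (siERK3 minus siCon, log2, horizontal axis) in the cornichon and AMPA receptor genes and 7 lists around them (rows). Filled points lie above background on all 6 arrays, open points do not, black rings mark an adjusted p under 0.05 and red bars the median of a list. SAR1B is the ringed gene, CNIH2 is drawn as a diamond with no test because its difference chose the genes, and every list median lies between -0.14 and 0.26.

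The neighbours of CNIH2 on chromosome 11 had small differences. Of the 10 nearest measured genes, 5 on each side in RefSeq order (GRCh38.p14), 0 passed limma's test and 0 reached an unadjusted p under 0.05. Over all genes 0.956% passed and 13.5% reached that level, so with 10 genes these counts are not a result about the neighbours. RAB1B, a GTPase of transport between ER and Golgi, is the nearest measured gene on one side, with a log2 difference of 0.08 (SE 0.13; 95% interval -0.21 to 0.36). YIF1A, a membrane protein of the same route, is the nearest on the other, with -0.05 (SE 0.18; 95% interval -0.46 to 0.36). The remaining 8 were GAL3ST3, SF3B2, PACS1, KLC2, TMEM151A, CD248, RIN1 and BRMS1, whose differences lay between -0.35 for KLC2 and 0.28 for GAL3ST3. GAL3ST3, below background throughout, was the neighbour whose groups did not overlap, as was also the case for 19.8% of all genes. RefSeq also places 1 long noncoding RNA gene across the start of CNIH2, which is not among the genes compared, and whether it adds to the CNIH2 signal was not tested.

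**Figure D3:**
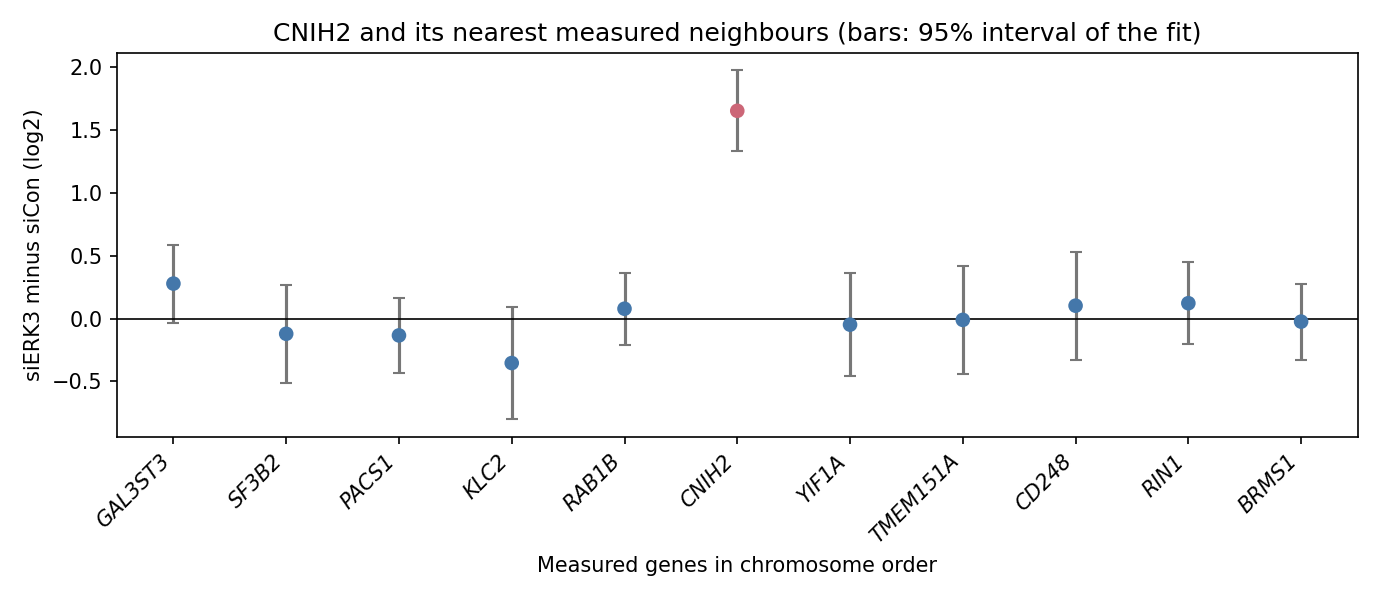
Change (siERK3 minus siCon, log2, vertical axis) of CNIH2 and of the 5 nearest measured genes on each side, in chromosome order, with 95% intervals of the limma fit as bars. CNIH2 stands at 1.65, and the 10 neighbours lie between -0.35 and 0.28 with intervals that include 0. The bar of CNIH2 is a description and no test, because its difference chose the genes.

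The genes with the profile most like that of CNIH2 were found by the root mean square difference of log2 values over the 6 arrays, after each gene was centred on its own mean. It describes the same values by which CNIH2 was chosen. EMP2, a tetraspan membrane protein, was nearest at 0.156, measuring 13.45, 13.71 and 13.57 in siCon and 15.30, 15.23 and 15.23 in siERK3. It was followed by IL6ST, the shared receptor subunit of IL-6 family cytokines (0.161), L1CAM, a cell adhesion molecule (0.163), YWHAH, of the 14-3-3 adaptor family (0.202), and IL10RB, which encodes a chain of cytokine receptors (0.225). The members themselves were farther, from 0.572 for GRIA2 and 0.652 for CNIH4 to 0.987 for GRIA3. On siERK3 3 CNIH2 stood above all 5 of these genes after centring.

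**Figure D4:**
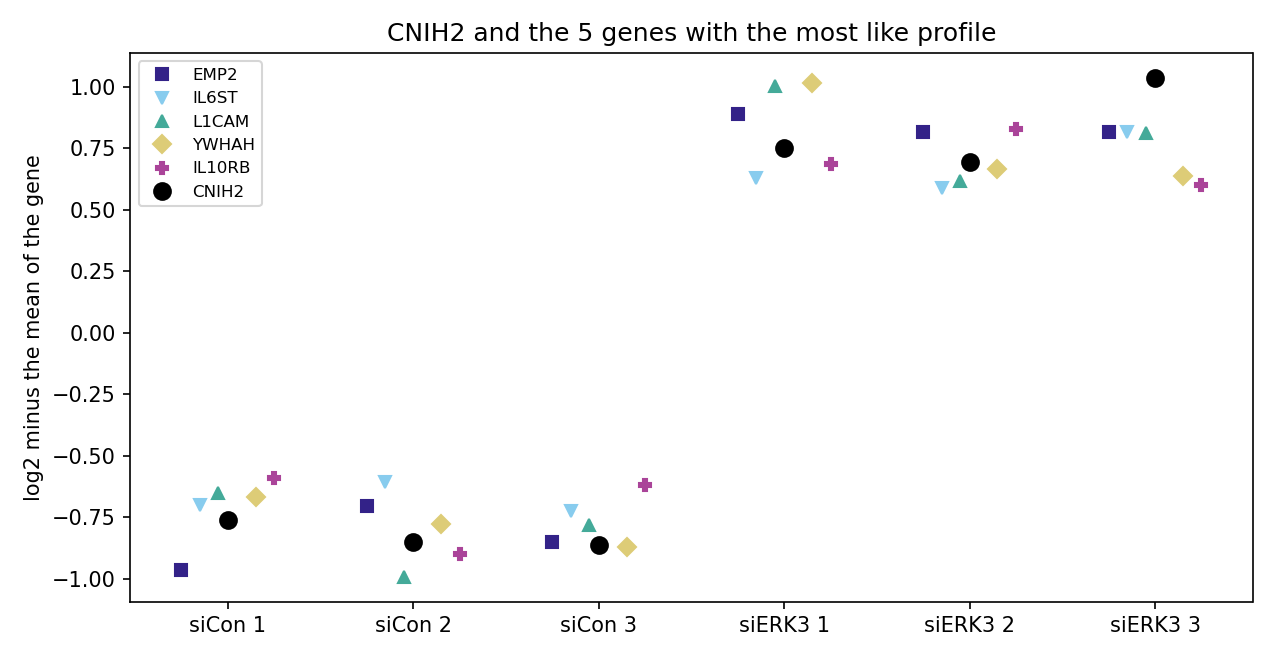
Log2 value minus the mean of the gene over the 6 arrays (vertical axis) for CNIH2, in black, and the 5 genes with the smallest root mean square difference from it, by array (horizontal axis). All 6 genes are low on the 3 siCon arrays and high on the 3 siERK3 arrays, and CNIH2 is the highest on siERK3 3.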

How the data were processed

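The authors deposited log2 values, 1 per probe set and array, for 24351 probe sets on 6 arrays. The software, background correction, normalization, zero point and any stretch of the scale are unstated in the sources used here. Array medians lay between 7.06 and 7.10, and folds would change if the scale were stretched. The annotation gave 1 symbol for 17709 probe sets, several for 0 and none for 6642, which include the controls. The brightest probe set was taken for the 20 genes with more than 1. limma 3.58.1 (R 4.3.3; lmFit and eBayes) fitted siERK3 minus siCon, with Benjamini-Hochberg adjustment over 17687 genes and a threshold of 0.05; the number of arrays limits the precision. The values hold no detection calls, so background was set at the 95th percentile of each array's negative controls. A bound ("at least") takes the dimmer group at background, or at its own value where that was brighter.

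The members and lists were chosen with earlier results of these data known. Named genes were the members, MAPK6, genes past the threshold and the 2 with the smallest p in each list, the brightest gene of 3 lists, the 5 genes most like CNIH2 among those above background on at least 3 arrays, and 5 measured neighbours on each side. Any other gene was picked once its values were known. On simulated data limma recovered 67.6% of genes changed by 0.8, 97.4% at 1.2 and 99.8% at 1.6 on the log2 scale. Of its calls 5.67% were false, for siERK3 minus siCon over 17687 genes. The simulated noise was normal and independent between arrays, with the fitted spread of each gene. These rates hold for such data and may not hold for the measured arrays. Alternatives were other normalizations, a filter on low values, other variance models, array weights, a replicate block, the mean of probe sets, other background levels and each array left out.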

Additional observations from a re-analysis of the deposited data

How the results depend on the processing

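The differences of MAPK6, CNIH1, CNIH2, CNIH3, CNIH4, GRIA2 and GRIA3 kept their direction under each alternative that could be run, and MAPK6 passed in each. For CNIH2 the difference lay between 1.64 and 1.65 under the 9 alternatives and between 1.55 and 1.72 with 1 array left out. These ranges describe the values by which CNIH2 was chosen and give it no separate support. The filter, the variance models, the replicate block and the mean of probe sets could not move the difference of any member. With balanced groups and 1 probe set per member, they leave the difference of group means as it is. Of the 7 other members, 0 passed under any alternative. With 1 array left out, GRIA1 lay between -0.40 and 0.0884 (positive without siCon 1) and GRIA4 between -0.19 and 0.0646 (positive without siERK3 3). SAR1B kept its direction but passed in none of these 6 fits, nor without moderation (adjusted p = 0.146 in limma) or with the replicate block (0.0824). The number of genes called was 365 when only genes brighter than the 30th percentile were tested (GRIA1 and GRIA3 fell outside), 722 with a mean-variance trend and robust eBayes, 8 without moderation, and 23 to 60 with 1 array left out. Among the 102 measured genes of the 7 lists around the members, 1 was called at first. The number was 10 with the trend and 2 with array weights, and 4 of 68 tested above the 30th percentile. It was 0 without moderation and 0 in each fit with 1 array left out. Over all 17687 genes 722 were called with the trend and 218 with array weights, against 169 at first. Whether the lists differ from all genes was not tested. With the median of the negative controls as background 7 members lay above it on all 6 arrays, against 3 at the 95th percentile and 2, CNIH1 and CNIH4, at the 99th; CNIH2 lay above the 99th on 1 array. The same replicate numbers do not show a pairing, since the deviations of same-numbered arrays correlated at 0.0492, -0.124 and -0.0386 across genes; with the replicate number as a block 33 genes were called, 0 in the 7 lists. Signal close to background limits the values of CNIH3, of the AMPA receptor subunit genes and of CNIH2 in siCon, and so also the fold of CNIH2.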
